A study of Mus musculus with 6 samples.

Results

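A set of 10 genes that mark the pyramidal subfields of the hippocampus was read in bulk RNA-seq of the dorsal hippocampus. These were 4 CA1 markers (Wfs1, Fibcd1, Mpped1 and Pou3f1), 3 CA2 markers (Rgs14, Amigo2 and Pcp4) and 3 CA3 markers (Bok, Iyd and Nectin3). They were named as subfield markers, with earlier results of these data known, from 55401 genes counted, and all 10 were among the 19969 genes that passed the filter on low counts. The 6 samples came from WT mice of 4 months, littermates of the trisomic Ts65Dn line, injected on both sides into the dorsal dentate gyrus (DG). In 3 mice the injected antisense oligonucleotide (ASO) was Snhg11-ASO, directed against the long non-coding RNA Snhg11, and in 3 it was Control-ASO, the same nucleotides in scrambled order, at 50 ug per hemisphere in both groups. The dorsal part of the hippocampus was taken 3 days later, so each library held the injected DG together with CA1, CA2, CA3, glia and whatever neighbouring tissue was cut with it. The titles call all 6 samples WT and the genotype label calls the Snhg11-ASO samples Snhg11 KD, although no mouse carried a mutation of Snhg11. The comparison asked whether the markers of the uninjected subfields differed between Snhg11-ASO and Control-ASO, and whether the subfields were sampled in the same proportions.

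The CA fields are the pyramidal cell layers that follow the DG in the hippocampal circuit. Granule cells of the DG send mossy fibres to CA3, CA3 neurons send Schaffer collaterals to CA1, and CA1 is the main output to the subiculum and cortex. CA2 lies between them and is known for its part in social memory and for resisting long-term potentiation at its Schaffer collateral synapses. Each field can be recognised by genes that its pyramidal neurons express more than their neighbours do, so the ratio of the markers of a pair of fields reads how much of each a dissected block contained. In bulk samples, fewer cells of a type and less RNA per cell cannot be told apart.

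The libraries held 28951250 to 43997537 read pairs assigned to genes, and levels are given as CPM, the read pairs of a gene scaled to library size with TMM factors. Snhg11, the targeted gene, was 398 ± 174 CPM in Control-ASO and 91.3 ± 41.4 CPM in Snhg11-ASO (SD, n = 3), which is 22.9% of Control-ASO. Its log2 fold change was -2.13 (SE 0.43, edgeR quasi-likelihood test, unadjusted p = 0.00172, adjusted p = 0.395). The hippocampal identity of the tissue was visible in the granule cell genes, with a summed level of 483 to 616 CPM over 11 genes in the 6 samples, among them the DG transcription factor Prox1 at 82.1 to 167 CPM. The ASO was the only labelled difference between the groups, but the libraries differed in depth and in genes of neighbouring tissue. Control-ASO replicates 1 and 3 held 165 and 139 CPM of 6 genes that are higher in the ventral than the dorsal hippocampus, against 73.3 CPM in Control-ASO replicate 2 and 73.8 to 88.5 CPM in Snhg11-ASO. Among these genes Dcn was at 56.6, 7.97 and 44.1 CPM in Control-ASO and at 18.2, 14.0 and 17.1 CPM in Snhg11-ASO. Choroid plexus genes summed to 1965, 39.1 and 1273 CPM in Control-ASO and to 1341, 131 and 73.0 CPM in Snhg11-ASO, so that 3 of the 6 libraries held much of this tissue. Values without Control-ASO replicates 1 and 3 are given beside the markers, balances and lists below. They compare the 3 Snhg11-ASO samples with Control-ASO replicate 2 alone, so no spread within Control-ASO enters them. That sample was itself the lowest in choroid plexus genes, at 39.1 CPM. Where replicates 1 and 3 were the lowest or the highest samples, leaving them out moves the value by that choice.

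The proximal promoters of 1 marker per field are shown because they are the regulatory sequence next to each start and differ widely in base composition. RefSeq promoter entries on GRCm38.p6 were found for 8 of the 10 markers, in 9 windows since Mpped1 has a pair of starts, and not for Pou3f1 and Rgs14. The 3 windows printed are the 250 bases before the RefSeq start of the CA1 marker Fibcd1 (chr2:31846006-31846255, minus strand), the CA2 marker Pcp4 (chr16:96467356-96467605, plus strand) and the CA3 marker Bok (chr1:93685325-93685574, plus strand). They were taken where the window also lies wholly before the start of the gene in GENCODE. Letters run 5′ to 3′ on the strand of the gene, and capitals mark a GC box (GGGCGG on either strand).
Fibcd1: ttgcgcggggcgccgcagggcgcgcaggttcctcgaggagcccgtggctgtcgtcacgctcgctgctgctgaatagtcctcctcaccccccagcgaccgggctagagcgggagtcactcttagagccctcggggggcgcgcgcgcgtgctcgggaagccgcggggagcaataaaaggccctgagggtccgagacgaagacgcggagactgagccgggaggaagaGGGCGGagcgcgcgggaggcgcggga
Pcp4: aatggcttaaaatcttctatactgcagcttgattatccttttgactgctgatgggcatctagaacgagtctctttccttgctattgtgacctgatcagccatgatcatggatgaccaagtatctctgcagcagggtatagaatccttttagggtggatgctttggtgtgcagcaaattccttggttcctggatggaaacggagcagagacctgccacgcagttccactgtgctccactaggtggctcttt
Bok: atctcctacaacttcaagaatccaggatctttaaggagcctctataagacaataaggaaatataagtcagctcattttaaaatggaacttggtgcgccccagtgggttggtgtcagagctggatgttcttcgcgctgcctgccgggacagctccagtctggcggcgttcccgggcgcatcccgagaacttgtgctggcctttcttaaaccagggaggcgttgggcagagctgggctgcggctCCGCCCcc
The Fibcd1 window was 71.6% G or C, Bok 55.2% and Pcp4 46.8%, against a median of 52.4% over all promoters of that length. A GC box was found in 6 of the 9 marker windows and in 32.7% of 32851 promoters. The TATA box (TATAAA) was found only in the window of Iyd among the 9, and in 12.4% of promoters. The octamer ATGCAAAT bound by POU factors, the cAMP response element TGACGTCA and the E-box CACGTG were in 0 of the 9 windows and in 1.6%, 1.55% and 6.02% of promoters. All motifs were searched on both strands, and the GC box overlaps none of the other 4 in its letters. A match is a description of the letters and not a binding site.

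Among the CA1 markers, Wfs1 was the closest to a difference between the groups, and the other 3 did not share its direction as a group. Wfs1 encodes wolframin, a membrane protein of the endoplasmic reticulum whose loss causes Wolfram syndrome. The gene (ENSMUSG00000039474) lies at chr5:36966104-36989205 on the minus strand of GRCm38. Wfs1 was at 58.2, 78.3 and 62.5 CPM in Control-ASO and at 74.8, 96.0 and 91.6 CPM in Snhg11-ASO. The groups overlapped in 1 pair, since Control-ASO replicate 2 was above Snhg11-ASO replicate 1. The means were 66.3 ± 10.6 and 87.4 ± 11.2 CPM (SD, n = 3), a log2 fold change of 0.40 (SE 0.15, edgeR unadjusted p = 0.031, adjusted p = 0.574). Without Control-ASO replicates 1 and 3 the log2 fold change was 0.15. Over all alternatives run, the lowest adjusted p of Wfs1 was 0.0508, in DESeq2 without Snhg11-ASO replicate 1.

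Mpped1, which encodes a metallophosphoesterase-domain protein, went the other way. The gene (ENSMUSG00000041708, chr15:83779467-83858494, plus strand) was at 139, 135 and 147 CPM in Control-ASO and at 91.8, 133 and 132 CPM in Snhg11-ASO. All Snhg11-ASO samples were below all Control-ASO samples, but replicates 2 and 3 lay close under the lowest Control-ASO sample and replicate 1 lay far under it. Its log2 fold change was -0.24 (SE 0.15, edgeR adjusted p = 0.727, exact permutation two-sided p = 0.1), and -0.08 without Snhg11-ASO replicate 1. Leaving out Control-ASO replicates 1 and 3 gave -0.19. With 3 samples against 3, a permutation p cannot go below 0.1.

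Fibcd1 and Pou3f1 differed by no more than the spread between samples. Fibcd1 encodes a membrane receptor with a fibrinogen-like domain that binds acetylated sugars such as chitin. It (ENSMUSG00000026841, chr2:31813290-31846005, minus strand, promoter above) was at 99.4, 96.1 and 61.8 CPM in Control-ASO and at 64.6, 89.7 and 81.6 CPM in Snhg11-ASO. The low samples were Control-ASO replicate 3 and Snhg11-ASO replicate 1, and the log2 fold change of -0.12 (SE 0.21, edgeR adjusted p = 0.888) became 0.00 without the latter and -0.30 without Control-ASO replicates 1 and 3. Pou3f1, a POU-domain transcription factor also known from myelinating Schwann cells, has a single short gene (ENSMUSG00000090125, chr4:124656807-124660655, plus strand). It was at 17.7, 32.3 and 22.4 CPM in Control-ASO and at 32.7, 29.1 and 31.9 CPM in Snhg11-ASO. Control-ASO replicate 2 was within the Snhg11-ASO range and the other Control-ASO samples were below it. The log2 fold change was 0.37 (SE 0.21, edgeR adjusted p = 0.693), and it turned to -0.06 without Control-ASO replicates 1 and 3. An antisense gene, Gm2164, covers 330 bases of Pou3f1 exon sequence, and the counts were taken by strand.

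**Figure D1:**
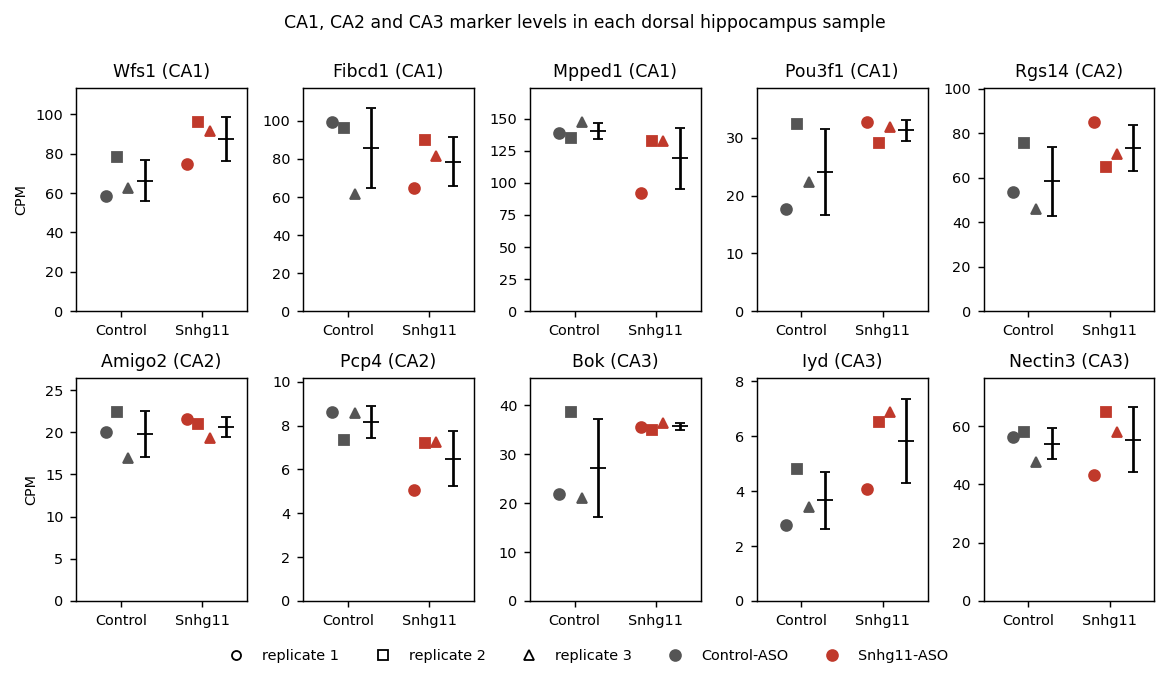
CPM of the 10 markers in each sample, 1 panel a gene, grouped by CA1, CA2 and CA3. Grey is Control-ASO and red Snhg11-ASO, the circle, square and triangle are replicates 1, 2 and 3, and bars give the mean ± SD; for Bok and Pou3f1 the squares of Control-ASO lie with the red points while its circles and triangles lie below them.

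No CA2 marker differed between the groups beyond the spread of the samples by the test across all genes, and Rgs14 and Pcp4 lay in opposite directions. Rgs14 encodes a regulator of G-protein signalling that restrains synaptic potentiation in CA2 neurons (ENSMUSG00000052087, chr13:55369732-55384687, plus strand). Rgs14 was at 53.6, 75.8 and 46.0 CPM in Control-ASO and at 85.1, 64.8 and 70.7 CPM in Snhg11-ASO. Again Control-ASO replicate 2 lay among the Snhg11-ASO samples and replicates 1 and 3 below them. The log2 fold change of 0.33 (SE 0.20, edgeR adjusted p = 0.709) turned to -0.06 without those 2 samples.

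Pcp4, a small protein that binds calmodulin through an IQ motif, lies at chr16:96467606-96525793 on the plus strand (ENSMUSG00000090223). It was at 8.63, 7.34 and 8.58 CPM in Control-ASO and at 5.06, 7.20 and 7.24 CPM in Snhg11-ASO. All Snhg11-ASO samples were below all Control-ASO samples, by a narrow margin apart from replicate 1. On the log2 scale the fold change was -0.33 (SE 0.19, edgeR adjusted p = 0.698, exact permutation two-sided p = 0.1), and -0.18 without Snhg11-ASO replicate 1. Leaving out Control-ASO replicates 1 and 3 gave -0.19. Its counts were only 193 to 316 read pairs a library. Annotated exons of the neighbouring gene Igsf5 share 243 bases with Pcp4 on the same strand, 23.7% of its exon sequence, and read pairs falling there were assigned to neither gene, so the level of Pcp4 is understated in every sample. Amigo2, a leucine-rich-repeat adhesion protein of the cell surface (ENSMUSG00000048218, chr15:97244125-97247287, minus strand), was at 20.0, 22.4 and 17.0 CPM in Control-ASO and at 21.6, 21.0 and 19.4 CPM in Snhg11-ASO. Its log2 fold change was 0.06 (SE 0.14, edgeR adjusted p = 0.926), with overlapping groups, and -0.14 without Control-ASO replicates 1 and 3. The Control-ASO sample then left was the highest of all samples for Amigo2, so that sign was fixed by the choice.

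The CA3 markers Bok and Iyd had higher means in Snhg11-ASO without passing the test, and Nectin3 had nearly equal means. Bok encodes a member of the BCL-2 family of apoptosis regulators (ENSMUSG00000026278, chr1:93685660-93695764, plus strand). Bok was at 21.8, 38.7 and 21.0 CPM in Control-ASO and at 35.6, 35.0 and 36.5 CPM in Snhg11-ASO. Control-ASO replicate 2 was the highest sample of all 6, and the coefficient of variation was 36.7% in Control-ASO and 2.06% in Snhg11-ASO. The log2 fold change of 0.39 (SE 0.24, edgeR adjusted p = 0.710) was 0.74 without Control-ASO replicate 2 (edgeR adjusted p = 0.295) and -0.13 without Control-ASO replicates 1 and 3. The last value leaves Control-ASO replicate 2, the highest sample, as the only Control-ASO sample, so its sign was fixed by that choice.

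Iyd encodes iodotyrosine deiodinase, best known for recycling iodide in the thyroid (ENSMUSG00000019762, chr10:3540240-3554877, plus strand). It was at 2.75, 4.82 and 3.41 CPM in Control-ASO and at 4.07, 6.51 and 6.89 CPM in Snhg11-ASO. Snhg11-ASO replicates 2 and 3 were above every other sample, while Snhg11-ASO replicate 1 was below Control-ASO replicate 2. The log2 fold change was 0.67 (SE 0.30, edgeR unadjusted p = 0.060, adjusted p = 0.630), the largest of the 10 in size, from 81 to 301 read pairs a library, and it was 0.26 without Control-ASO replicates 1 and 3. Nectin3 encodes an immunoglobulin-like adhesion protein of the puncta adherentia between mossy fibre terminals and CA3 dendrites (ENSMUSG00000022656, chr16:46387706-46498525, minus strand). It was at 56.2, 57.8 and 47.8 CPM in Control-ASO and at 43.1, 64.9 and 57.9 CPM in Snhg11-ASO, and both the lowest and the highest sample were in the Snhg11-ASO group. Its fold change was 0.04 on the log2 scale (SE 0.16, edgeR adjusted p = 0.965), and -0.08 without Control-ASO replicates 1 and 3.

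**Figure D2:**
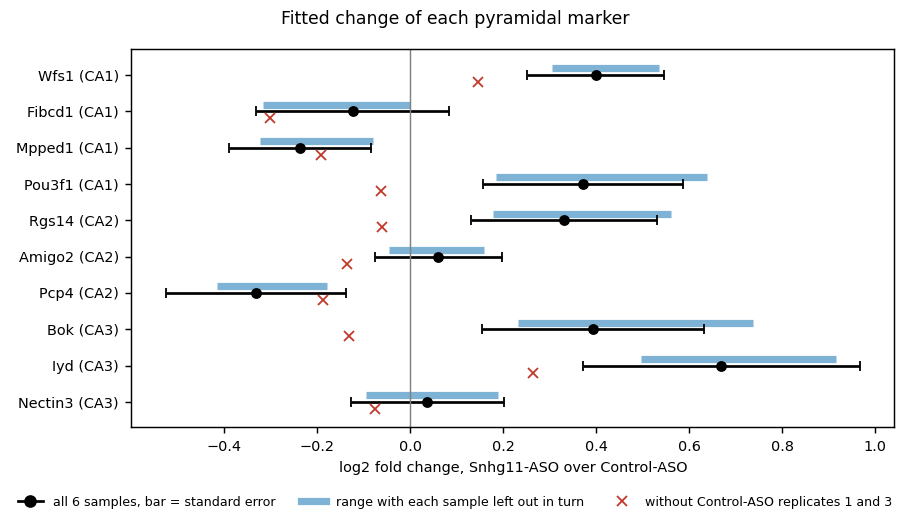
Log2 fold change of each marker, Snhg11-ASO against Control-ASO. Black points with bars give the estimate from all 6 samples ± SE, and blue bands the range over leaving out each sample in turn. Red crosses give the value without Control-ASO replicates 1 and 3, with 1 Control-ASO sample left. The crosses of 8 markers lie below 0, all but Wfs1 and Iyd, and for Pou3f1, Rgs14, Amigo2, Bok and Nectin3 this turns the direction.

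Of the 10 markers, 0 passed an adjusted p of 0.05 in edgeR's quasi-likelihood test, where 0.0% of the 19969 genes did. At an unadjusted p under 0.05 there was 1 marker, Wfs1, where 8.11% of all genes were. At the same adjusted threshold DESeq2 called 0 of the 10 markers and 1.44% of the genes it could adjust. Wfs1 and Iyd had unadjusted p-values of 0.0246 and 0.0408 in DESeq2, with adjusted p-values of 0.364 and 0.456. The median log2 fold change of the 10 was 0.20, with 7 higher and 3 lower in Snhg11-ASO, against a median of 0.01 and 51.7% higher over all genes tested. The groups did not overlap for 2 markers, Mpped1 and Pcp4, both lower in Snhg11-ASO, where 7.7% of all genes were separated in that direction, and for 0 markers in the other direction, where 7.73% were. In 5 markers, Wfs1, Pou3f1, Rgs14, Bok and Iyd, the lowest 2 of the 6 samples were Control-ASO replicates 1 and 3, and this held for 9.11% of all genes tested. In the 2 markers without overlap, Mpped1 and Pcp4, they were the highest 2 samples, as in 9.61% of all genes. Without overlap in that direction the highest 2 samples can only be Control-ASO, so the share over all genes is not a like background. These 2 libraries were also the 2 highest in the sum of the 6 ventral hippocampus genes, and were high in choroid plexus genes, at 1965 and 1273 CPM. Whether the 6 genes were read from ventral tissue, and the part of such tissue in these marker values, was not tested. Same-numbered samples of the groups deviated weakly together (correlations 0.297, 0.179 and 0.103), a pairing that the labels do not give. Within these 3 pairs Wfs1 (0.36, 0.29 and 0.55 on the log2 scale) and Iyd (0.55, 0.43 and 1.002) were higher in Snhg11-ASO every time, where 17.6% of all genes were. Mpped1 and Pcp4 were lower in every pair, which any pairing gives for groups without overlap. The 16.7% of all genes that were lower in every pair is therefore not a like background. The other 6 markers differed in direction between pairs. With the replicate number as a block, edgeR called 0 markers after adjustment.

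Per length of exon sequence, the markers spanned a wide range in Control-ASO. Mpped1 was the highest at 32.7 ± 1.49 CPM per kb, followed by Fibcd1 at 18.0 ± 4.38, Wfs1 at 17.5 ± 2.80, Bok at 14.8 ± 5.42 and Rgs14 at 13.8 ± 3.65 CPM per kb. Lower levels were found for Pcp4 at 7.98 ± 0.712, Pou3f1 at 6.27 ± 1.93, Amigo2 at 6.26 ± 0.865, Nectin3 at 4.23 ± 0.421 and Iyd at 2.26 ± 0.649 CPM per kb (SD, n = 3). The Control-ASO ranges of neighbours in this order were separate between Mpped1 and Fibcd1, between Rgs14 and Pcp4, between Amigo2 and Nectin3 and between Nectin3 and Iyd. The other neighbours overlapped, so their order is not fixed by these samples. The place of Pcp4 is not fixed either, since its level was 10.5 ± 0.933 CPM per kb over all exon bases not shared with Igsf5 and 20.6 ± 1.84 CPM per kb over the unshared bases of its longer coding transcript. The highest and lowest markers, Mpped1 and Iyd, belonged to CA1 and CA3.

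The balance of the fields was read in each sample as the mean log2 CPM of the markers of a field minus that of another. It is not normalised to the share of cells, and since the markers were proposed with results of these data known it was not tested. The CA1 minus CA3 balance was 2.02, 1.77 and 1.98 in Control-ASO, whereas Snhg11-ASO gave 1.74, 1.63 and 1.61, on the log2 scale. All Snhg11-ASO samples were below all Control-ASO samples, with means of 1.92 ± 0.13 and 1.66 ± 0.07 and a difference of -0.26. Leaving out each sample in turn gave -0.34 to -0.22, and a log2 ratio of the summed CPM gave -0.21. The difference became -0.11 without Control-ASO replicates 1 and 3, and within the same-numbered pairs it was -0.29, -0.14 and -0.36. Since the groups did not overlap, the sign within pairs was fixed whatever the pairing.

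The genes in the balance did not contribute alike. Of the 12 pairs of a CA1 with a CA3 marker, 10 were lower in Snhg11-ASO as a log2 ratio, 3 without overlap of the groups. In the other direction 1 pair was higher without overlap. Each of the 3 pairs contained Mpped1 or Iyd. The 12 ratios reuse the same genes and are not independent, and the share over other gene pairs was not counted. Without Mpped1 the CA1 minus CA3 difference was -0.14, and without Iyd it was -0.12, in both cases with overlapping groups. The groups also overlapped without Fibcd1 (-0.19) and without Bok (-0.23), and stayed apart without Wfs1 (-0.36), Pou3f1 (-0.37) or Nectin3 (-0.44). With 5 other CA1 genes and 5 other CA3 genes in place of the markers the balance was -0.00, 0.40 and 0.43 in Control-ASO, whereas Snhg11-ASO gave 0.29, -0.03 and 0.39. These groups overlapped and differed by -0.06.

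The other balances overlapped between the groups. The CA2 minus CA3 balance was 0.48, 0.07 and 0.32 in Control-ASO, whereas Snhg11-ASO gave 0.19, -0.20 and -0.19, a difference of -0.35 that was 0.04 as a ratio of summed CPM and -0.13 without Control-ASO replicates 1 and 3. Within the same-numbered pairs the CA2 minus CA3 balance was lower in Snhg11-ASO each time, by differences of -0.29, -0.27 and -0.50. The CA1 minus CA2 balance differed by 0.09, and by -0.24 as a ratio of summed CPM. Against the 11 dentate granule genes, the 10 pyramidal markers had a balance of -0.29, -0.04 and -0.19 in Control-ASO, whereas Snhg11-ASO gave -0.11, -0.11 and 0.07. This difference of 0.13 was -0.01 without Control-ASO replicates 1 and 3 and -0.05 as a ratio of summed CPM.

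**Figure D3:**
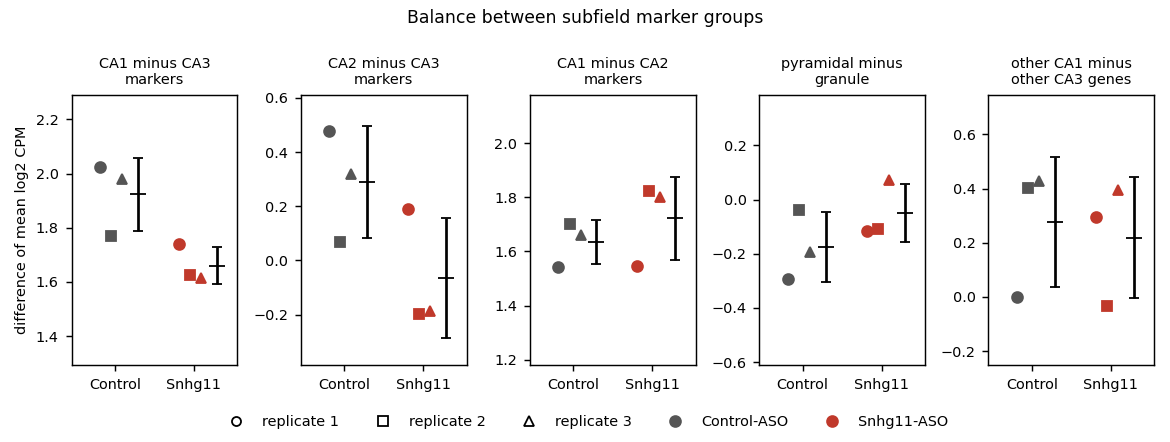
Balance of subfield markers in each sample, as the difference of mean log2 CPM between the sets named. Grey is Control-ASO and red Snhg11-ASO, marker shapes are replicates and bars the mean ± SD; only in the CA1 minus CA3 balance do the groups not overlap, at 1.77 to 2.02 against 1.61 to 1.74.

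Further genes of the same fields gave 0 calls by edgeR after adjustment. Of the 5 other CA1 genes, 3 were higher and 2 lower, with a median log2 fold change of 0.01. Spink8, a Kazal-type serine protease inhibitor, was higher in Snhg11-ASO without overlap, at 11.1, 15.2 and 10.1 against 15.8, 16.4 and 16.9 CPM (0.43, SE 0.18, edgeR adjusted p = 0.599). Of the 7 other CA2 genes, 4 were higher and 3 lower, with a median of 0.09. Cacng5, an auxiliary subunit of AMPA receptors, was at 10.8, 13.5 and 7.42 CPM in Control-ASO and at 24.5, 18.4 and 14.4 CPM in Snhg11-ASO, without overlap (0.86, SE 0.27, edgeR adjusted p = 0.543). Necab2, a neuronal calcium-binding protein, was at 47.2, 28.8 and 35.5 against 26.9, 29.4 and 27.0 CPM (-0.42, SE 0.18, edgeR adjusted p = 0.618). Of the 5 other CA3 genes, 2 were higher and 3 lower, with a median of -0.03, and 0 were at an unadjusted p under 0.05. Homer3, a postsynaptic scaffold protein, was at 23.0, 38.1 and 24.8 against 28.0, 38.3 and 35.2 CPM, with Control-ASO replicates 1 and 3 again the 2 lowest samples. Without those 2 samples the medians were -0.29 for the other CA1, -0.02 for the other CA2 and -0.18 for the other CA3 genes.

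Genes of pyramidal and other excitatory neurons had a median log2 fold change of 0.03 over 7 genes, with 4 higher, 3 lower and 0 called. The transcription factor Tbr1, also a gene of deep neocortical neurons, was at 23.1, 23.7 and 34.2 CPM in Control-ASO and at 17.1, 19.2 and 16.4 CPM in Snhg11-ASO (-0.62, SE 0.18, edgeR adjusted p = 0.507). The synaptic pentraxin Nptx1 was at 289, 286 and 235 against 426, 361 and 307 CPM (0.43, SE 0.15, edgeR adjusted p = 0.551). The dentate granule genes, from the cells that were injected, had a median of -0.00 with 5 higher and 6 lower, and the 4 mossy cell and hilar genes a median of 0.10 with 2 in each direction. Without Control-ASO replicates 1 and 3 these medians were -0.33 for the pyramidal and excitatory neuron genes, -0.17 for the granule and 0.87 for the mossy cell and hilar genes.

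Genes of other cells and of neighbouring tissue are given beside these values. The 6 ventral hippocampus genes were all lower in Snhg11-ASO, with a median log2 fold change of -1.06, and in all 6 the highest 2 samples were Control-ASO replicates 1 and 3, as in 9.61% of all genes tested. The median was -0.29 without Control-ASO replicate 1 and turned to 0.39 without both. Trhr, the receptor of thyrotropin-releasing hormone, was at 12.6, 0.595 and 2.70 CPM in Control-ASO and at 1.97, 1.12 and 1.01 CPM in Snhg11-ASO (edgeR adjusted p = 0.660). The 10 choroid plexus genes had a median of -0.91 with all lower, and the 10 oligodendrocyte genes a median of 0.29 with all higher, at summed levels of 1650, 3040 and 2031 CPM in Control-ASO and 1705, 3748 and 2971 CPM in Snhg11-ASO. Both medians kept their sign with any single library left out, but their size moved. The choroid plexus median was -0.25 without Control-ASO replicate 1, -2.60 without Snhg11-ASO replicate 1, and it turned to 3.70 without Control-ASO replicates 1 and 3. The oligodendrocyte median was 0.02 without Snhg11-ASO replicate 2, 0.61 without Snhg11-ASO replicate 1, and it turned to -0.13 without Control-ASO replicates 1 and 3. In both groups replicate 1 was the lowest in oligodendrocyte genes. Interneuron genes had a median of -0.26 with 9 of 10 lower and summed levels of 631, 578 and 573 against 468, 453 and 508 CPM, without overlap. Their median was -0.14 without Control-ASO replicate 1 and -0.18 without Control-ASO replicates 1 and 3. Among them Erbb4, the neuregulin receptor, was at 140, 110 and 126 against 60.8, 78.9 and 73.8 CPM (-0.82, SE 0.13, edgeR adjusted p = 0.308).

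The remaining lists had smaller medians. The 5 subiculum and retrosplenial genes had a median of -0.25, the 7 neocortex genes -0.16, the 8 thalamus and habenula genes 0.08, the 10 astrocyte genes -0.22, the 10 microglia genes 0.09 and the 10 endothelial genes 0.03. Of the thalamus and habenula genes, 4 were higher and 4 lower. Prkcd was higher in Snhg11-ASO without overlap (0.76, SE 0.12, edgeR adjusted p = 0.304), and Tac1 was lower without overlap (-1.21, SE 0.45, edgeR adjusted p = 0.574). Neocortex genes summed to 93.8, 82.0 and 129 CPM in Control-ASO and 129, 71.6 and 86.7 CPM in Snhg11-ASO, highest in Control-ASO replicate 3 and Snhg11-ASO replicate 1. In Snhg11-ASO replicate 1 the neocortex gene Ccn2 alone gave 44.3 CPM of the sum, against 1.99 to 7.96 CPM in the other samples. Without Control-ASO replicates 1 and 3 the medians of these 6 lists were 0.12, 0.13, 0.18, -0.28, -0.25 and 0.04 in the same order. The neocortex median was -0.68 without Snhg11-ASO replicate 1. In each of these lists 0 genes were called by edgeR after adjustment. The part of these tissues and cells in the marker values was not tested.

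**Figure D4:**
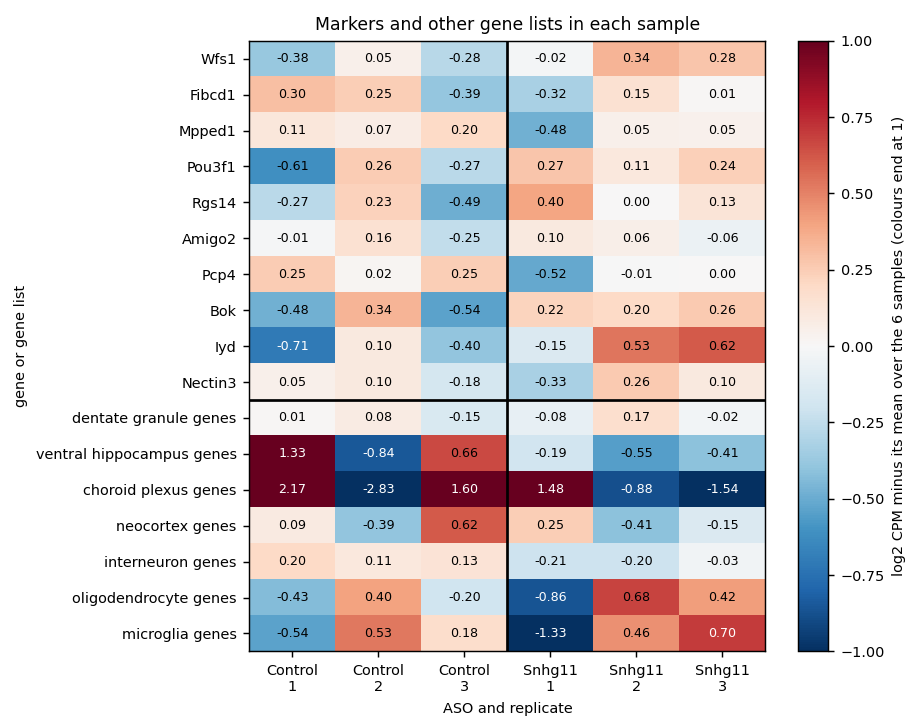
Heat map of the log2 CPM of each marker and of the mean log2 CPM of 7 of the lists in the 6 samples, minus its mean over the 6. Darker red is higher and darker blue lower, with the value printed in each cell; the ventral hippocampus genes stand out in Control-ASO replicates 1 and 3, the samples that are lowest for 5 of the 10 markers, and the choroid plexus genes in these 2 and Snhg11-ASO replicate 1.

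The median correlation was lower between markers of the same field than between markers of different fields. Over the 6 samples, Pearson's r of log2 CPM was -0.846 to 0.817 with a median of 0.208 for the 12 pairs within a field, and -0.744 to 0.983 with a median of 0.400 for the 33 pairs across fields. The highest was 0.983 for the CA1 marker Wfs1 and the CA3 marker Iyd, and the lowest -0.846 for Rgs14 and Pcp4, both CA2 markers. Mpped1 and Pcp4 followed each other at 0.964, and Pou3f1 and Bok at 0.931. These values describe 6 libraries that share the groups and the differences in tissue given above.

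The genes whose pattern was most like the mean of the standardised markers of a field were picked from 11132 protein-coding genes. For CA1 they were the transcription factor Zeb2 (r = 0.993, Spearman's rho 0.943 over 6 samples), Slc35c2 (0.993, rho 0.943) and Mmd (0.989, rho 0.943). Zeb2 was at 438, 636 and 428 CPM in Control-ASO and at 419, 629 and 588 CPM in Snhg11-ASO, high in Control-ASO replicate 2 and in Snhg11-ASO replicates 2 and 3. For CA2 they were the adhesion molecule Mcam (0.995, rho 0.829), the protocadherin Pcdhgc3 (0.973, rho 0.714) and Fam102a (0.967, rho 0.943). For CA3 they were Wdr73 (0.991, rho 1.0), the actin regulator Cyfip1 (0.982, rho 0.943) and Ss18 (0.982, rho 0.943), a subunit of the BAF chromatin complex. Such values are high by selection from many genes over few samples and say nothing of where these genes are expressed.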

How the data were processed

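RNA was extracted with TRIzol and libraries were made with a stranded total RNA kit. The authors aligned reads with STAR (v.2.5.2a) to mm10 (GRCm38) and deposited raw counts of read pairs per gene for each sample. Their methods name Rsubread for counting, while the layout of the files is that of STAR. The second-strand (reverse) counts were used, which held 96.2% to 96.8% of the stranded counts. Lines that name no gene were 43.5% to 51.4% of pairs and were left out. Of 55401 gene identifiers, 55141 matched GENCODE M21.

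Low genes were removed with filterByExpr (minimum count 10), and the groups were compared with edgeR 4.0.16 (TMM factors, quasi-likelihood test, Benjamini-Hochberg adjustment at 0.05 over 19969 genes, R 4.3.3). The common biological coefficient of variation was 0.266. DESeq2 1.42.0 was an alternative. The study removed 1 Snhg11-ASO sample that is not named in the sources used here, so all 6 were kept and each was left out in turn. Log2 CPM used a prior count of 2. Exon lengths came from GENCODE and promoters from RefSeq. The methods were checked on simulated counts.

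Same-numbered samples deviated weakly together (correlations 0.297, 0.179 and 0.103). This pairing was seen in the values and is not given by the labels, so a replicate block was fitted only as an alternative. The markers and lists were chosen with earlier results of these data known. Genes named from a list are among its 3 with the largest absolute log2 fold change (not all are reported here), and like-patterned genes are the 3 with the highest r per field. Of the listed symbols, Ctgf matched no identifier apart from its newer name Ccn2, and Gbx2 was too low to test. Leaving out Control-ASO replicates 1 and 3 together, exchanging the genes of the CA1 minus CA3 balance, the differences within pairs, and the length of Pcp4 without shared bases were alternatives chosen after seeing the data.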

Additional observations from a re-analysis of the deposited data

How the results depend on the processing

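Of 198 alternative log2 fold changes of the 10 markers and Snhg11, 184 kept their direction and side of the threshold, and no marker was called in any of the alternatives run. Snhg11 passed it in 4 of 18, all with DESeq2. DESeq2 called 258 of all genes, and edgeR 0. Leaving out each sample in turn gave 0 to 2 genes with edgeR and 223, 275 and 347 with DESeq2 when a Snhg11-ASO sample was left out. With the replicate block, edgeR called 0 genes and 0 markers, and the block changed no other call. Small differences changed sign. Leaving out each sample in turn, Fibcd1 ranged from -0.317 to 0.000455 (without Snhg11-ASO replicate 1), Amigo2 from -0.046 (without Control-ASO replicate 3) to 0.159, and Nectin3 from -0.094 (without Snhg11-ASO replicate 2, with -0.093 in DESeq2) to 0.188, with -0.046 without Control-ASO replicate 3. Without Control-ASO replicates 1 and 3, where the lone Control-ASO sample is assumed to vary like the others, Pou3f1 was -0.063, Rgs14 -0.061, Amigo2 -0.14, Bok -0.13 and Nectin3 -0.076, the CA1 minus CA3 balance was -0.11, CA2 minus CA3 -0.13 and pyramidal minus granule -0.012. As ratios of summed CPM, CA2 minus CA3 was 0.036, CA1 minus CA2 -0.24 and pyramidal minus granule -0.052. The CA1 minus CA3 balance was -0.14 without Mpped1, -0.12 without Iyd, -0.44 without Nectin3 and -0.057 with other genes. Apart from the samples and genes left out, the cause was not tested. Of 288 list medians under alternatives, 22 moved by more than the spread between replicates. Iyd and Pcp4 had the fewest counts.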
